A study of Mus musculus with 48 samples.

Results

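The transcription factor Rest and 8 genes for the corepressor proteins that work with it were followed through all 48 libraries of the series. The 9 genes, Rest, Rcor1, Rcor2, Rcor3, Kdm1a, Sin3a, Hdac1, Hdac2 and Ehmt2, were taken by gene symbol from the 34183 genes in each table, and all 9 were found and passed the filter on low counts in every comparison. The libraries came from cultured sensory ganglion cells of adult mice, all of wildtype genotype, enriched for neurons and grown in Neurobasal-A with B27. Cells were transfected with Dharmafect 2 as soon as they had been isolated and were harvested 42 h later, except for an untransfected group taken at 0 h (time 0). The study asked what transcription factors that respond to axon injury contribute to gene expression in these cells.

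The 12 groups held 4 libraries each. One table held time 0, a control siRNA pool (siCONTROL) and pools against Rest, Atf3, Atf4, Jun, Stat3, Klf6 and Alyref (siRest, siAtf3 and so on). A second table held cells given synthetic mRNA for GFP, for Atf4, or for Atf4 together with Cebpg. Each target had 1 siRNA pool, so effects of a pool on other transcripts cannot be told apart from effects of its target. The labels do not state whether replicates were separate animals or cultures, and p-values therefore measure only the spread between these samples, which may be technical. These are bulk libraries, in which fewer cells of a type and less RNA per cell cannot be told apart.

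Rest is a zinc finger repressor that keeps neuronal genes silent in cells that are not neurons and in neural progenitors, and it is low in most mature neurons. It binds a long DNA element called RE1 and recruits enzymes from both ends of the protein. Its N-terminal domain binds the Sin3 scaffold, which carries the histone deacetylases Hdac1 and Hdac2, and its C-terminal domain binds CoREST (Rcor1 and its paralogs Rcor2 and Rcor3), which carries the same deacetylases and the histone demethylase Kdm1a. The histone methyltransferase Ehmt2 (G9a) is also recruited. In sensory ganglia, nerve injury is known to induce Rest, and channel and receptor genes such as Kcnd3, Scn10a, Oprm1 and Chrm2 have been described as its targets there.

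Because the readout of Rest activity is the RE1 element, the 300-base promoter windows of RefSeq (build GRCm38.p6, 250 bases before to 50 after each gene start) were searched on both strands for the canonical RE1 consensus. It spans 21 bases, 19 of them fixed, and up to 3 mismatches were allowed. A match was present in 24 of 32851 windows (0.0731%). Among 40 neuronal genes known for an RE1 site, 25 had a window, and 4 of their 38 windows (10.5%) held a match. These 4 sites are shown because their genes are described with the Rest knockdown, with capitals for letters that equal a fixed letter of the consensus and lower case for mismatches and for the 2 free positions.
Syn1, chrX:20921130-20921150 (minus strand): TTCAGCACCgcGGtCAGaGCC
Gria2, chr3:80802989-80803009 (plus strand): TTtAGCACCgcGGACAGCGCt
Celsr3, chr9:108825918-108825938 (plus strand): TTCAGCACCgtGGgCAGCaCt
Chrm4, chr2:91921975-91921995 (minus strand): TcCAGCACCgaGGgCAcCGCC
The base of each site farthest before the gene start lay at -232 (Syn1), -174 (Gria2), -127 (Celsr3) and -214 (Chrm4) bases. The Gria2 and Chrm4 sites are printed from the strand opposite to their genes, so their printed letters end at these positions. Of the 9 Rest and corepressor genes, 7 had 9 windows between them and none held a match, the nearest having 6 mismatches. Rest and Hdac1 had no entry.

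Library totals ranged from 1539198 to 6621566, with siKlf6 replicate 1 the shallowest and siRest replicate 1 (1937372) next. Levels are given as CPM after TMM scaling over all 48 libraries, on the per-length scale of the deposited values, so levels of different genes can be compared. Whether the authors scaled the siRNA and mRNA tables together is not stated, so only groups of 1 table were tested against each other. The 6 other siRNA targets stood at 16.8% to 29.8% of siCONTROL in their own groups and all 6 fell by edgeR's test. Atf4 was 22-fold higher after Atf4 mRNA, and Cebpg 1310-fold higher after the Atf4 and Cebpg mixture. All 10 pan-neuronal markers, Rbfox3, Elavl3, Elavl4, Uchl1, Map2, Prph, Isl1, Gap43, Thy1 and Eno2, were detected in every group.

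The knockdown lowered Rest itself. Rest stood at 5.13, 1.93, 3.44 and 2.53 CPM in the 4 siRest libraries and at 7.70, 7.70, 8.62 and 9.35 in siCONTROL. No siRest library reached the lowest siCONTROL library, and the highest siRest value belonged to the shallow replicate 1. Rest fell 2.757-fold (log2 change -1.46, SE 0.199, edgeR adjusted p = 0.000142), to 36.3% of control, and leaving out 1 library at a time gave log2 changes from -1.65 (without siRest replicate 1) to -1.28 (without siRest replicate 2). About 33.2 to 58.3 reads lay behind Rest in each siRest library, against 87.2 to 175.7 in siCONTROL. When only these 2 groups were fitted, the log2 change was -1.45 but the adjusted p was 0.284.

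Time in culture had moved Rest the other way. Rest stood at 1.96, 1.85, 1.79 and 2.01 CPM at time 0, so every siCONTROL library was above every time 0 library. Rest rose 4.417-fold by 42 h (log2 change 2.14, SE 0.238, edgeR adjusted p = 1.61e-05). The change joins dissociation, culture and transfection, which cannot be told apart here. The siRest mean of 3.26 ± 1.39 (SD, n = 4) was above the time 0 mean of 1.90 ± 0.102, but the groups overlapped.

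Across the other groups at 42 h, Rest varied little. Its mean was 9.82 ± 0.540 after Atf4 mRNA, 9.64 ± 1.31 in siAtf4 and 9.47 ± 0.664 after Atf4 and Cebpg mRNA. It was 8.43 ± 0.904 in siAtf3, 8.34 ± 0.798 in siCONTROL, 7.97 ± 2.19 in siKlf6 and 7.73 ± 0.684 after GFP mRNA. It was lowest in siStat3 (7.55 ± 0.288), siJun (7.33 ± 0.515) and siAlyref (7.20 ± 0.744). In this order neighbouring means differed by more than the larger SD only between Atf4 and Cebpg mRNA and siAtf3, which are in separate tables, and between siAlyref and siRest, and only the last pair did not overlap. The highest of the 10 means was 1.36 times the lowest.

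**Figure D1:**
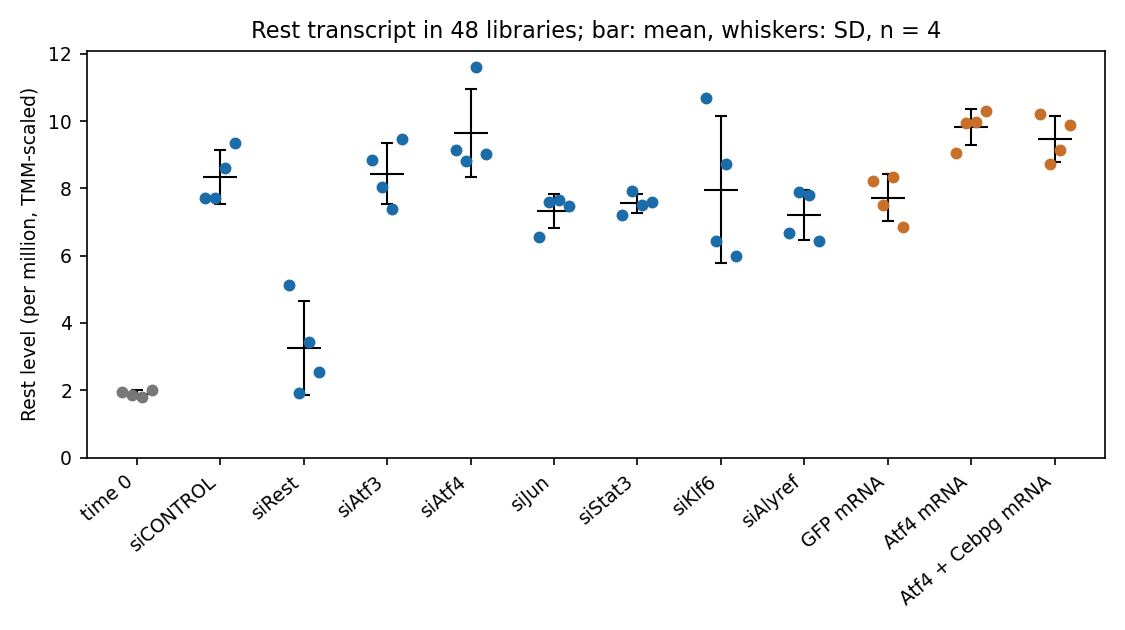
Rest level (CPM, TMM-scaled) in each of the 48 libraries by group, points for libraries and bars for the mean and SD of 4. The time 0 libraries lie between 1.79 and 2.01, the siRest libraries between 1.93 and 5.13, and the siCONTROL libraries between 7.70 and 9.35.

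In culture the corepressors did not move as a block. Of the 9 genes, 3 rose and 2 fell between time 0 and siCONTROL, where 57.9% of all genes tested passed, so a count of 5 of 9 is near the background. Their median log2 change was 0.186, beside 0.0109 over all genes. Besides Rest, Hdac2 and Kdm1a rose and Rcor2 and Rcor3 fell. Total-count scaling, an alternative chosen after seeing the data, moved the median of all genes to 0.110.

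Among the CoREST scaffolds, Rcor2 changed most. Its levels at time 0 were 32.4, 21.9, 19.6 and 13.1 CPM, and in siCONTROL 5.45, 4.47, 5.93 and 11.5. The groups did not overlap, although siCONTROL replicate 4 came close to the lowest time 0 library. Rcor2 fell 3.248-fold (log2 change -1.70, SE 0.330, adjusted p = 0.00101), and leaving out 1 library at a time gave log2 changes from -2.05 (without siCONTROL replicate 4) to -1.45 (without time 0 replicate 1).

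Rcor3, the most abundant of these paralogs, stood at 45.1, 41.7, 46.5 and 25.1 CPM at time 0 and at 26.4, 31.5, 29.6 and 25.0 in siCONTROL. Its 4 time 0 libraries included one, replicate 4, within the siCONTROL range. It fell by 0.49 on the log2 scale (adjusted p = 0.0349), a call lost without any one of siCONTROL replicates 1, 3 and 4 or time 0 replicates 1, 2 and 3 (adjusted p up to 0.0964), without the filter on low counts (0.0571) and with total-count scaling (0.0754). Rcor1, the founding CoREST, was at 20.5 ± 3.44 at time 0 and 21.2 ± 1.73 in siCONTROL, with a log2 change of 0.04 (95% interval -0.24 to 0.33, adjusted p = 0.814).

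The share of each scaffold in the sum of the 3 was compared in the same libraries. Rcor2 made up 22.4% to 33.8% of the sum at time 0 and 8.02% to 19.9% in siCONTROL, and the ranges did not overlap. Rcor1 made up 19.2% to 34.6% and then 35.4% to 42.6%, again without overlap. The means moved by -13.9 percentage points for Rcor2 and 11.8 for Rcor1, each with a two-sided exact permutation p = 0.0286, the smallest that 4 against 4 allow, and 0.0572 after Benjamini-Hochberg adjustment over the 4 shares tested. Rcor3 held 48.1% ± 5.17 and 50.1% ± 5.75 (exact p = 0.600). No share passed after adjustment.

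**Figure D2:**
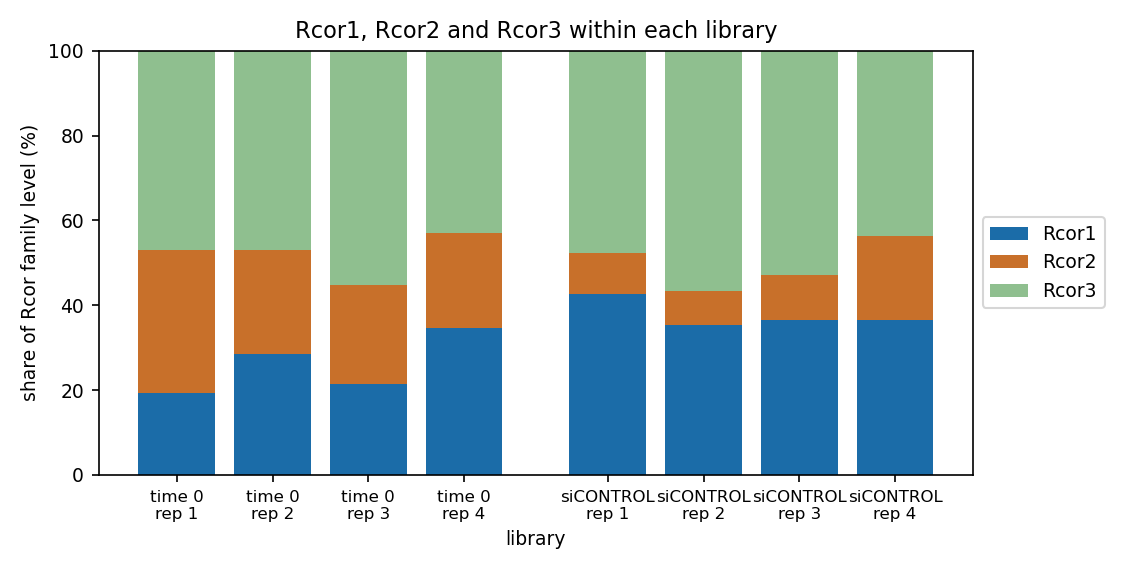
Share of Rcor1, Rcor2 and Rcor3 in their summed level (%), stacked for each time 0 and siCONTROL library. The Rcor2 segment spans 22.4% to 33.8% at time 0 and 8.02% to 19.9% in siCONTROL.

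Of the 9 genes, Hdac2 and Kdm1a had the highest levels at time 0. Hdac2 stood at 89.9, 108, 99.4 and 107 CPM at time 0 and at 151, 138, 140 and 150 in siCONTROL, with no overlap. It rose 1.435-fold (log2 change 0.52, SE 0.0789, adjusted p = 0.000172). Kdm1a, the demethylase of histone H3 lysine 4, stood at 47.9, 57.8, 45.8 and 60.7 and then at 94, 74.0, 67.1 and 64.3, also without overlap, and rose 1.41-fold (log2 change 0.50, adjusted p = 0.00863).

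Hdac1 was at 29.8 ± 2.77 at time 0 and 35.5 ± 6.98 in siCONTROL (log2 change 0.25, adjusted p = 0.175). Without siCONTROL replicate 2 it passed the test (log2 change 0.38, adjusted p = 0.0277). Its share of Hdac1 and Hdac2 together was 22.9% ± 3.15 and 19.6% ± 2.81 (exact p = 0.200). Ehmt2 was at 44.3 ± 3.77 and 37.0 ± 4.07 (log2 change -0.26, adjusted p = 0.0661), and passed without time 0 replicate 1 (log2 change -0.32, adjusted p = 0.0472) and when fitted with all siRNA groups (0.0407). Sin3a, the other Rest scaffold, was at 17.9 ± 5.61 and 20.1 ± 4.09, with an interval of the log2 change from -0.28 to 0.65.

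Markers of other cell types moved over the same interval. Counts of them stand beside 28.7% of all genes that rose and 29.2% that fell. Of 10 satellite glia markers 3 rose and 5 fell, and their summed level was 4560 to 5610 CPM at time 0 and 778 to 909 in siCONTROL. Of 10 Schwann cell markers 1 rose and 8 fell, with sums of 2060 to 2430 and 1280 to 1530. The 6 macrophage markers summed to 7.72 to 10.7 and 26.9 to 45.1, but they did not move together. Most of the later sum was Cd68, which rose from 0.912 ± 0.514 to 30.1 ± 7.01. Csf1r rose from 1.53 ± 0.221 to 4.34 ± 1.41, while C1qa fell from 3.85 ± 0.852 to 0 in siCONTROL. The 8 cell cycle genes summed to 74.9 to 82.3 and 161 to 201. The part of these cells in the changes of Rest and its corepressors was not tested.

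**Figure D3:**
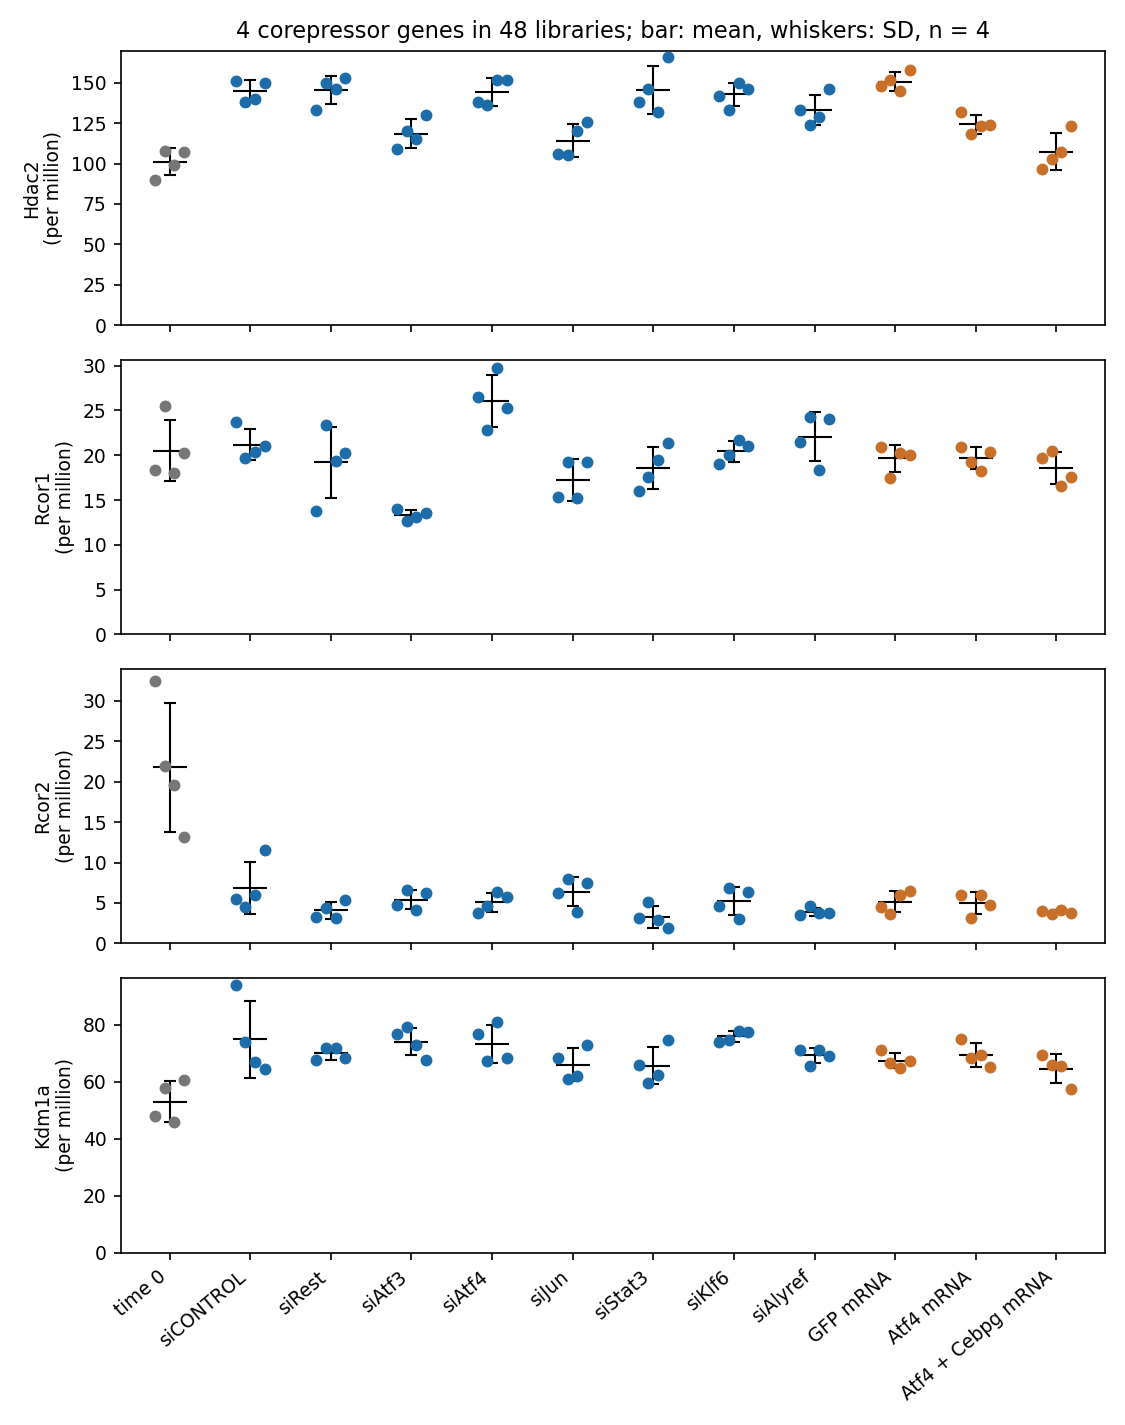
Levels of Hdac2, Rcor1, Rcor2 and Kdm1a (CPM) in the 48 libraries by group, points for libraries and bars for the mean and SD of 4. Rcor2 spans 13.1 to 32.4 at time 0 and 4.47 to 11.5 in siCONTROL, and Rcor1 spans 12.7 to 14.0 in siAtf3 against 19.7 to 23.7 in siCONTROL.

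Lowering Rest left its corepressors near their control levels. Of the 9 genes only Rest itself passed the test in siRest, where 30 of 14876 genes did (0.202%). Hdac2 averaged 145 ± 8.65 CPM in siRest and 145 ± 6.32 in siCONTROL, and the interval of its log2 change ran from -0.14 to 0.16. The intervals were -0.27 to 0.09 for Kdm1a, -0.36 to 0.14 for Rcor1, -0.29 to 0.22 for Hdac1, -0.22 to 0.21 for Ehmt2 and -0.29 to 0.33 for Rcor3. Sin3a (-0.13 to 0.70) and Rcor2 were less well bounded. Rcor2 stood at 3.30, 4.44, 3.18 and 5.42 in siRest, where 3 of 4 libraries lay below all siCONTROL libraries, and its log2 change was -0.68 (interval -1.28 to -0.07, adjusted p = 0.772).

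Of 38 neuronal genes with an RE1 site tested after the Rest knockdown, 0 passed by edgeR and 0 by DESeq2, and 2 had an unadjusted p below 0.05. Since 0.202% of all genes passed, a count of 0 is also the background for a list of this size, and the intervals say more than the count. These 2 were Chrnb2, a nicotinic receptor subunit, with 45.9 ± 4.5 in siRest and 38.8 ± 3.75 in siCONTROL, and Slc12a5, the potassium chloride cotransporter of neurons, with 0.698 ± 0.468 and 1.89 ± 1.77. Both were picked out after their values were seen. The median log2 change of the list was 0.003, beside -0.00314 for all genes. For 32 of the 38 the upper end of the 95% interval was below 1.5-fold and for 37 it was below 2-fold, Calb1 being the exception (2.28-fold).

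None of the 4 genes with a site printed above passed. Syn1, a synaptic vesicle protein, stood at 285, 254, 264 and 246 CPM in siRest and at 253, 247, 260 and 244 in siCONTROL, with overlapping groups and a ratio interval of 0.962 to 1.12. Gria2, the AMPA receptor subunit, stood at 0.561, 1, 1.82 and 0.920 against 1.37, 0.983, 0.993 and 1.30. Its level was so low that the ratio was known only to within 0.570 to 1.59.

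The cadherin Celsr3 averaged 18.7 ± 4 in siRest and 14.7 ± 3.02 in siCONTROL (log2 change 0.31, interval of the ratio 0.904 to 1.69). The muscarinic receptor Chrm4 averaged 9.26 ± 2.59 and 7.35 ± 1.58 (log2 change 0.34, interval 0.914 to 1.75). Both pairs of groups overlapped. The 5 injury targets also gave 0 calls by edgeR, with 0 at an unadjusted p below 0.05. Where 0.202% of all genes passed, that is again the background. Scn10a, the sodium channel of nociceptors, averaged 91.0 ± 6.47 and 88.3 ± 5.83, and Kcnd3, a potassium channel, 38.1 ± 0.739 and 40.2 ± 3.6. Oprm1 and Chrm2 were less well bounded, with ratio intervals of 0.64 to 1.52 and 0.362 to 1.66. The median log2 change of the 5 was -0.084.

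Over the interval in which Rest rose, the same lists moved widely. Of 36 genes with an RE1 site tested in culture, 25 fell and 5 rose, against 29.2% and 28.7% of all genes, and the median log2 change was -0.555. Gria2 averaged 11 ± 1.74 at time 0 and 1.16 ± 0.201 in siCONTROL and fell 9.312-fold (adjusted p = 1.72e-06). Syn1 averaged 442 ± 2.27 and 251 ± 6.90 and fell by 0.81 on the log2 scale, while Celsr3 (14.5 and 14.7) and Chrm4 (8.14 and 7.35) overlapped.

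Vgf, Syt4, Bdnf and Scg2 were among those that rose. Vgf, the precursor of secreted neuropeptides, rose from 232 ± 29.4 to 1170 ± 136, and Syt4, a vesicle protein, from 202 ± 15.1 to 896 ± 71.1. Of the injury targets, Kcnd3, Scn10a, Oprm1 and Chrm2 fell, by 1.39, 2.94, 2.12 and 3.13 on the log2 scale. Scn10a fell from 680 ± 70.3 to 88.3 ± 5.83 and Chrm2 from 8.27 ± 1.10 to 0.921 ± 0.341. Since siCONTROL serves as the control of siRest and as the later point of this comparison, the 2 sets of values share libraries and were not compared by a test. The pan-neuronal markers summed to 11400 to 12300 at time 0 and 8730 to 10300 in siCONTROL. Of these 10 markers 2 were higher and 5 lower, against 28.7% and 29.2% of all genes. Their part in the fall of these genes was not tested.

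**Figure D4:**
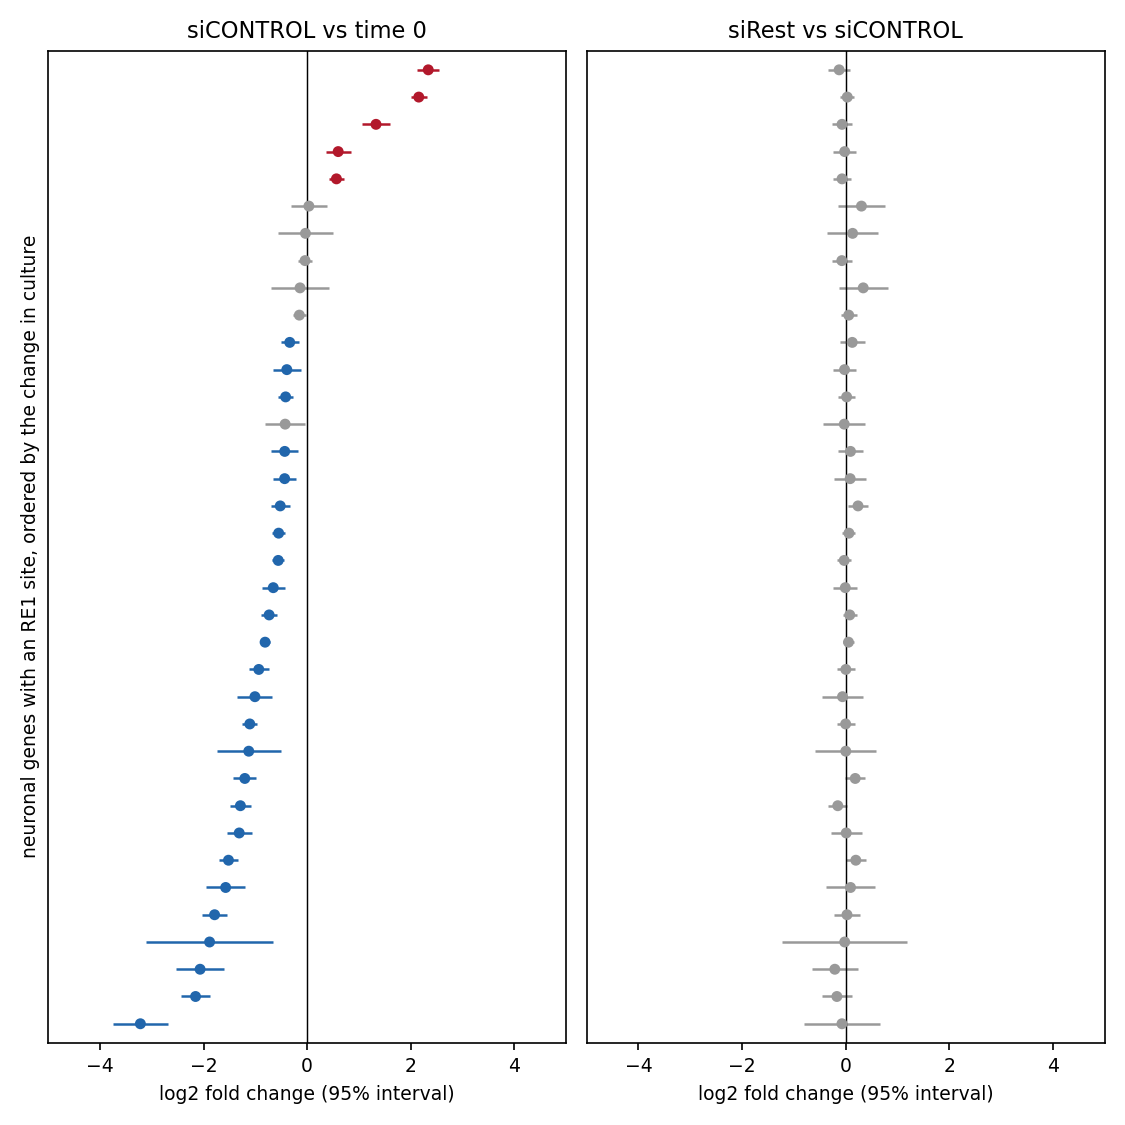
Log2 fold change with 95% interval of the 36 RE1 genes tested in both comparisons, 1 gene a line in the order of the change in culture, siCONTROL against time 0 on the left and siRest against siCONTROL on the right, with genes past an adjusted p of 0.05 in color. On the left 25 fell and 5 rose, and on the right 0 passed.

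Few corepressors passed in the other knockdowns. In siAtf3, Rcor1 and Hdac2 fell, 2 of 9 genes where 11.5% of all genes passed. A count this small cannot be set apart from that share. Rcor1 stood at 14.0, 12.7, 13.1 and 13.5 CPM in siAtf3 and at 23.7, 19.7, 20.4 and 21.0 in siCONTROL, well apart. It fell 1.582-fold (log2 change -0.66, SE 0.129, edgeR adjusted p = 0.000566), and every alternative run kept it past the threshold. Of the 10 groups at 42 h other than siRest, siAtf3 had the lowest Rcor1 mean (13.3) and siAtf4 the highest (26.1 ± 2.90, log2 change from siCONTROL 0.30, adjusted p = 0.157).

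Hdac2 stood at 109, 120, 115 and 130 in siAtf3, below the siCONTROL range of 138 to 151. It fell by 0.29 on the log2 scale (adjusted p = 0.00873), but with total-count scaling the change was -0.21 and the adjusted p 0.0707. That scaling also turned the share of higher genes among all called in siAtf3 from 34.7% to 56.5%. In siJun, Hdac2 was the only one of the 9 to pass, where 7.80% of all genes did, so the count is near the background. Hdac2 stood at 106, 105, 120 and 126, again below siCONTROL. It fell by 0.34 (SE 0.0750, adjusted p = 0.00323). Rcor1 averaged 17.3 ± 2.30 in siJun, below siCONTROL without overlap, yet did not pass (log2 change -0.30, adjusted p = 0.177).

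In siAtf3, where 7.51% of all genes were lower and 3.99% higher, 5 of 10 pan-neuronal markers were lower and 0 higher. Their sums were 7510 to 8570 CPM, and the satellite glia markers summed to 576 to 706 with 2 of 10 lower. In siJun the sums were 8310 to 9720 and 534 to 782. Schwann cell markers summed to 978 to 1140 in siAtf3, below the siCONTROL range of 1280 to 1530, and to 1070 to 1330 in siJun. Endothelial and mural markers summed to 161 to 215 in siAtf3 and 162 to 197 in siJun, the latter below the siCONTROL range of 198 to 244. Their part in the Rcor1 and Hdac2 changes was not tested. All knockdowns share the siCONTROL libraries.

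In siAtf4, siStat3, siKlf6 and siAlyref, 0 of the 9 genes passed by edgeR and 0 by DESeq2, where 6.93%, 3.0%, 1.84% and 4.24% of all genes did by edgeR. At an unadjusted p below 0.05 there was 1 gene in siAtf4 (Rcor1), 1 in siStat3 and 1 in siAlyref (Rcor2 in both), and 0 in siKlf6. Rcor2 stood at 3.09, 5.06, 2.93 and 1.90 in siStat3, where 3 of 4 libraries were below all siCONTROL libraries. Its log2 change was -1.05 (interval -1.67 to -0.43, adjusted p = 0.0710). With the replicate number as a block it passed. It also passed without siCONTROL replicate 2 (-1.21, adjusted p = 0.0419) and without siStat3 replicate 2 (-1.34, adjusted p = 0.0250). Without siCONTROL replicate 4, however, the change was -0.68 (adjusted p = 0.350). In siAlyref Rcor2 averaged 3.90 ± 0.512 (log2 change -0.79, adjusted p = 0.181). siCONTROL had the highest mean of Rcor2 at 42 h, and its replicate 4 was the highest of those 40 libraries.

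**Figure D5:**
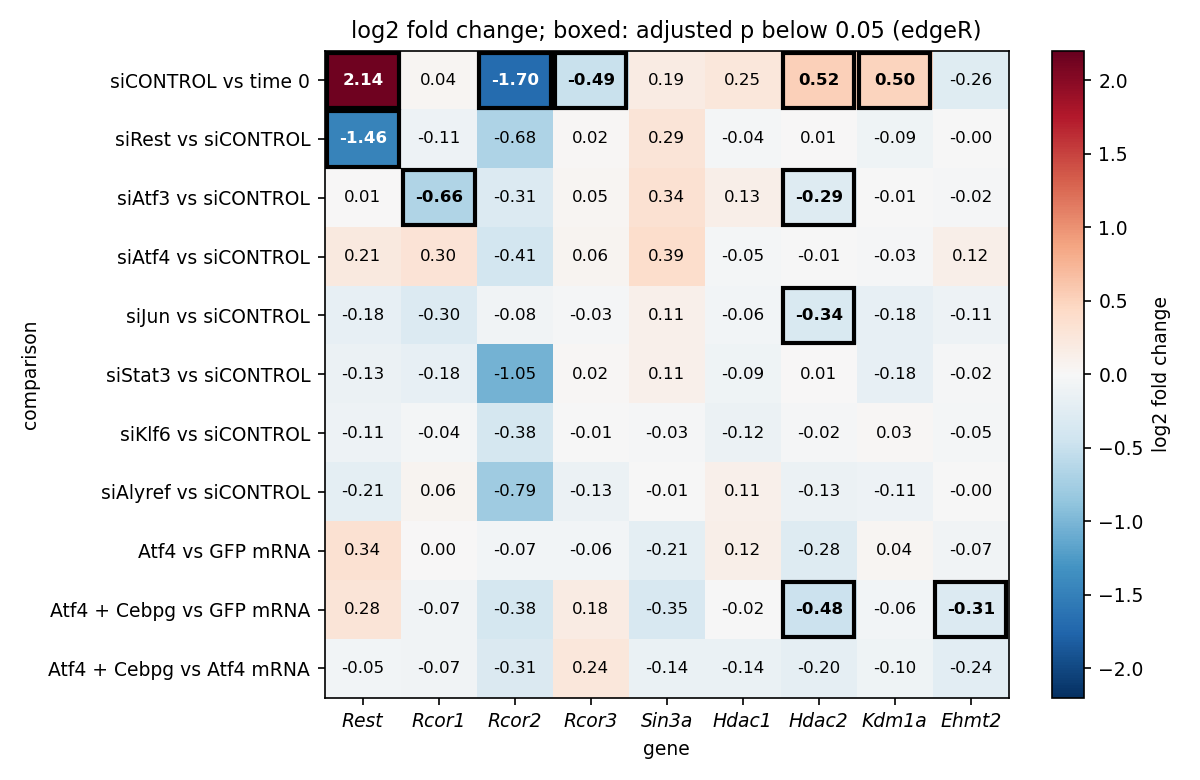
Log2 fold change of Rest and the 8 corepressor genes in the 11 comparisons, red for higher and blue for lower in the first-named group. Boxes mark an edgeR adjusted p below 0.05, and there are 11 of them, 5 in siCONTROL against time 0.

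Adding Atf4 with Cebpg lowered a pair of the chromatin enzymes. Hdac2 and Ehmt2 fell against GFP mRNA, 2 of 9 genes where 24.6% of all genes passed, so the count is near the background. Hdac2 stood at 96.7, 103, 107 and 123 CPM after Atf4 and Cebpg mRNA and at 148, 152, 145 and 158 after GFP mRNA. It fell 1.393-fold (log2 change -0.48, SE 0.0783, edgeR adjusted p = 0.000602). With Atf4 mRNA alone Hdac2 stood at 132, 118, 123 and 124. Its mean lay between those of the other groups, and its libraries overlapped those of the mixture. The log2 change from GFP was -0.28 (edgeR adjusted p = 0.0579).

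Ehmt2, which methylates histone H3 lysine 9, stood at 31.5, 28.1, 29.2 and 27.9 after the mixture and at 35.8, 38.4, 34.1 and 36 after GFP mRNA. It fell by 0.31 on the log2 scale (SE 0.0934, adjusted p = 0.0281). The call was lost with DESeq2 (adjusted p = 0.0745), with only these groups fitted (0.0524), and without replicate 2, 3 or 4 of the mixture or replicate 2 or 4 of GFP (up to 0.0871). Rest averaged 9.47 ± 0.664 after the mixture, 9.82 ± 0.540 after Atf4 mRNA and 7.73 ± 0.684 after GFP mRNA. Both Atf4 groups lay above all GFP libraries, but Rest did not pass (log2 changes 0.28 and 0.34, adjusted p = 0.232 and 0.218).

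Against GFP, Atf4 mRNA alone gave 0 calls by edgeR among the 9 genes, 1 by DESeq2 (Hdac2, adjusted p = 0.0258) and 2 at an unadjusted p below 0.05, with 4.90% of all genes called. Hdac2 also passed when only these groups were fitted (adjusted p = 0.0491). The mixture against Atf4 alone gave 0 calls by both tools and 2 at an unadjusted p below 0.05, Hdac2 and Ehmt2, with 6.59% of all genes called. Hdac2 differed by -0.20 (interval -0.36 to -0.05, adjusted p = 0.157), so the step from Atf4 alone to the mixture was not shown. Satellite glia markers summed to 618 to 700 after GFP mRNA, 502 to 594 after Atf4 and 478 to 602 after the mixture. Endothelial and mural markers summed to 172 to 220, 216 to 252 and 245 to 275, and the GFP and mixture sums did not overlap. Of these 8 markers 3 were higher and 0 lower in the mixture than after GFP mRNA, against 12.4% and 12.2% of all genes. The part of these cells in the Hdac2 and Ehmt2 changes was not tested.

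Of 28 other subunits and partners of these complexes, 10 rose and 4 fell from time 0 to siCONTROL, with a median log2 change of 0.24. With 57.9% of all genes called (28.7% higher and 29.2% lower), their total is not above the background. Sap30 and Brms1, both of the Sin3 complex, rose by 1.38 and 0.84 on the log2 scale. The Kdm1a paralog Kdm1b rose by 1.28 and the corepressor Ctbp2 by 1.18. In siRest, where 0.202% of all genes passed, 0 of 28 passed by edgeR, which is the background for such a list, and 1 had an unadjusted p below 0.05. That gene, Hdac3, averaged 55.5 ± 3.43 and 65.5 ± 1.46 without overlap (log2 change -0.24, adjusted p = 0.436) and was picked out after its values were seen.

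In siAtf3, 4 of 28 fell and 1 rose, against 7.51% and 3.99% of all genes. Ctbp1 averaged 113 ± 2.12 CPM in siAtf3 and 251 ± 13.7 in siCONTROL and fell by 1.15 on the log2 scale (adjusted p = 1.88e-09). Zmym3, a zinc finger protein of the CoREST complex, averaged 42.6 ± 8.10 and 94 ± 9.53 and fell by 1.14. Ctbp2 fell by 0.51, a call lost without siAtf3 replicate 1 (adjusted p = 0.0509), and the histone chaperone Rbbp7 rose by 0.30.

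In siJun 2 fell and 1 rose, against 4.60% and 3.20% of all genes. Hmg20b, a CoREST complex subunit, fell by 0.62, Ctbp1 fell by 0.47 and Rbbp7 rose by 0.35. After Atf4 and Cebpg mRNA 3 rose and 5 fell, against 12.4% and 12.2% of all genes, with 5 in all without GFP replicate 2. The Sin3 complex subunits Sap130 and Arid4b rose by 0.90 and 0.62 and the deacetylase Hdac3 fell by 0.52, from 71.0 ± 5.54 to 49.5 ± 2.40.

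Genes that act on Rest protein or splicing were read from a list of 14. In culture 5 of 13 tested rose and 2 fell, a total near the background of 57.9%. Srrm4, the neuronal splicing factor that makes a truncated Rest form, averaged 8.20 ± 0.415 at time 0 and 25.4 ± 1.82 in siCONTROL and rose 3.118-fold (adjusted p = 1.13e-06). The phosphatase Ctdsp1, which stabilises Rest, rose 1.936-fold. Fbxw11, an F-box protein that marks Rest for degradation, rose by 0.52 on the log2 scale, whereas its paralog Btrc and the deubiquitinase Usp7 fell by 0.33 and 0.36. The Btrc call was lost with total-count scaling (adjusted p = 0.135), without the filter on low counts (0.0695), and without any one of siCONTROL replicates 1, 2 and 3 or time 0 replicates 2, 3 and 4 (0.0598 to 0.0847). In siJun Srrm4 averaged 16.7 ± 1.38 and fell by 0.62 (adjusted p = 0.00101). In siRest 0 of 14 passed by edgeR, again the background, with 0 at an unadjusted p below 0.05. The tables hold sums per gene, so Rest isoforms were not analysed here.

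Likeness to Rest was measured as the correlation of log2 levels over the 44 libraries outside siRest, for 14970 genes. The 5 nearest genes were AI506816 (r = 0.9602), Flna, Npm1, Fosl1 and Wsb1 (0.9454 to 0.9377). These libraries fall into time 0 and 42 h, and over the 40 libraries at 42 h the same r values were 0.5984, 0.5135, 0.5284, 0.4837 and 0.5517. Of the corepressors Kdm1a had the highest r with Rest over 44 libraries (0.5954) and Rcor2 the lowest (-0.7482). Over the 40 at 42 h these were -0.0511 and 0.0303. These values are descriptions without a test, and libraries of a group share their treatment.

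The promoter windows of the 7 genes with an entry were also searched on both strands for 3 short elements of the factors that were manipulated. TGANTCA, the AP-1 element, was in 7.81% of all windows, TGACGTCA, the CRE, in 1.79%, and TGATGNAA, the composite element of Cebp and Atf factors, in 3.97%. The 1 match was a composite element of Kdm1a at -192 bases. No match says only that these letters are not in the window.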

How the data were processed

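RNA-seq libraries (Illumina stranded mRNA kit, per the labels) were measured in 48 samples, 4 for each of 12 groups. The authors deposited expected counts for each gene, not all of them whole. The submitters' processing notes name kallisto and GRCm39. No source used here states the kallisto version, the annotation or how values were scaled. Small values of 3003 single-transcript genes multiplied by transcript length clustered at a constant of 1900 to 2200 bp, so the counts carry a weight per transcript length, and the reads behind Rest were estimated from that constant. Symbols came from GENCODE annotation of GRCm38, which named 32470 of 34183 identifiers (95.0%). The RE1 consensus and short motifs were taken from general knowledge, and the promoter windows from RefSeq GRCm38.p6.

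Counts were rounded, filtered with filterByExpr, scaled by TMM and tested with edgeR 4.0.16 (quasi-likelihood, R 4.3.3), with Benjamini-Hochberg adjustment over all genes tested and a threshold of 0.05. siCONTROL and the 7 knockdowns were fitted together (14876 genes), as were the 3 mRNA groups (13857), and time 0 with siCONTROL alone (13448). Intervals are 95% from the fitted log2 change and its SE with the normal multiplier of 1.96. They leave out the residual degrees of freedom, so they are somewhat narrow and can leave out 0 where the test does not pass. Shares of paralogs were compared by exact permutation tests. Depth ranged from 1539198 to 6621566 counts a library.

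The genes and lists were chosen with earlier results of these data known. Named genes are all 9, the genes with a printed site, and from each list and comparison at most 4 called genes of largest change whose groups do not overlap. Other genes were named after their values were seen where the text says so, and counts of 5 or fewer were named whole in places. Alternatives were DESeq2 1.42.0, RLE size factors, no filter, other groups in the fit, the replicate number as a block, each replicate left out, and total-count scaling. Markers of fibroblasts (sums of 267 to 488 CPM at time 0 and 135 to 279 in siCONTROL) and of endothelial and mural cells (144 to 179 and 198 to 244) were read as well. The fibroblast markers moved both ways. Apod fell from 242 ± 80.8 to 43.2 ± 16.2 and Dcn from 83.5 ± 19.6 to 40.1 ± 8.87, while Col1a1, Col3a1 and Postn rose. Some genes of these lists are counted but not reported here by name.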

Additional observations from a re-analysis of the deposited data

Results flagged for a closer look

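Within the 108 groups of 4 libraries formed by the 9 genes in 12 groups, a single library was marked where its gap to the nearest other exceeded Dixon's 95% critical share of the range of the group. Chance marks about 1 in 20 such groups, and 2 were marked here. Rest in siAtf4 replicate 3 was 11.6 CPM, while the other 3 libraries lay between 8.81 and 9.13. Rest in siJun replicate 1 was 6.56, while the others lay between 7.49 and 7.66.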

How the results depend on the processing

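Of the counts of the 9 genes and the share differences recomputed with settings other than a left-out replicate, 62 stayed the same and 8 moved. With 1 replicate left out at a time, 96 stayed the same, 7 moved and 1 share difference changed sign. The other 16, share differences of Rcor1 and Rcor2, lost an exact p below 0.05, which 4 against 3 libraries cannot reach. A count stayed the same if it was equal or within 1.5 times. A share difference did so if it kept its sign and its exact p stayed on the same side of 0.05. With DESeq2 and with only the 2 groups fitted, the count of the 9 genes called was 1 rather than 2 for Atf4 and Cebpg against GFP mRNA and 1 rather than 0 for Atf4 against GFP mRNA. With only the 2 groups fitted it was 0 rather than 1 for siRest, and with total-count scaling 1 rather than 2 for siAtf3. With the replicate number as a block it was 1 rather than 0 for Atf4 against GFP mRNA (Hdac2, adjusted p = 0.0389) and for siStat3 (Rcor2, adjusted p = 0.0448), and the block changed no other count of the 9. The labels do not state whether the numbers pair samples, and no comparison had every same-numbered pair correlated above 0.1. Same-numbered pairs correlated at 0.077 to 0.198 in siRest against siCONTROL, each above any other number. The same held in the other comparisons, with exceptions only for number 1. These were siAtf3 (0.063, with another number at 0.133), siJun (0.097 for both) and siCONTROL against time 0 (0.047 and 0.06). The block raised the all-gene count in every comparison. It went from 447 to 746 in siStat3, from 679 to 1042 for Atf4 against GFP mRNA and from 30 to 45 in siRest. The main fits did not use the number. Fitting only the 2 groups moved it from 274 to 18 in siKlf6, 447 to 193 in siStat3, 631 to 350 in siAlyref and 30 to 5 in siRest, and dropping the filter moved siRest to 18. Leaving out 1 replicate at a time, the count of the 9 ranged from 4 to 6 in culture, 1 to 2 for Atf4 and Cebpg against GFP mRNA and 0 to 1 in siStat3. The Rcor1 share difference then ranged from 9.6 to 14.7 points, Rcor2 from -16.5 to -11.3, Hdac1 from -4.2 to -1.81 and Rcor3 from -0.0586 (without siCONTROL replicate 2) to 4.5. With 4 against 3 the exact p cannot go below 0.0571. Total-count scaling moved the share of higher genes among those called from 56.7% to 71.2% for Atf4 against GFP mRNA and from 68.1% to 50.9% for the mixture against Atf4. The cause of these shifts was not tested. Depth limits Gria2, Chrm2 and Slc12a5, which averaged 1.16, 0.921 and 1.89 CPM in siCONTROL, and Rest, with 26.5 to 28.8 reads in each time 0 library.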
